A study of Mus musculus with 8 samples.

Results

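The change of each mRNA between the germinal vesicle (GV) and metaphase II (MII) stages of the mouse oocyte was set beside its change between embryonic stem cells (ESC) and epiblast cells made in vitro (EpiC), and the difference of the changes was tested gene by gene. This contrast, EpiC minus ESC less MII minus GV, was fitted for 25045 of the 48440 genes in the tables, those that passed a filter on low counts. A positive value means that the change on leaving the naive state lay above the change at maturation. All 8 libraries of the series enter it, and no library is shared between the maturation change and the naive-exit change. Genes were sorted into those that changed alike, oppositely or in one system only for the 10532 genes detected in both systems.

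Fully grown oocytes are transcriptionally silent, so during meiotic maturation stored transcripts are lost by decay, and the length of their poly(A) tails controls translation. Cytoplasmic polyadenylation elements near the end of a 3′ UTR are bound by CPEB proteins and direct tails to be extended at set times of maturation. ESC leaving the naive state are transcribing cells: removal of LIF and of the inhibitors of MEK and GSK3 lets ERK signalling act, the naive transcription factors are lost and formative genes such as Fgf5 and Dnmt3a are switched on.

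The series concerns microRNA suppression in vertebrate oocytes and holds 2 libraries of each group. Per the labels, mice received PMSG (5 units), with a further injection after 48 h that is not named, and GV oocytes were collected in medium with 2 µM milrinone, a phosphodiesterase inhibitor that holds the meiotic arrest. The MII label repeats this protocol and gives no maturation step. ESC grew in Knockout DMEM with 15% FBS, LIF, PD0325901 (a MEK inhibitor) and CHIR99021 (a GSK3 inhibitor). For EpiC, cells were left for 24 h after plating and then held for about 56 h without LIF or either inhibitor. RNA was total TRIzol RNA made into stranded paired-end libraries. No source used here states a poly(A) selection step, so the amount of an mRNA and the length of its tail cannot be told apart in the oocytes. The labels do not tell whether both libraries of a group stem from different animals or cultures. The p-values therefore reflect only the scatter between these samples, which may be technical.

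Library size was lowest in EpiC replicate 1, at 47463546 estimated counts, and highest in MII replicate 2, at 196788239. The libraries of a group correlated across genes at 0.945 to 0.983 (Pearson, log scale). The labels were checked against marker genes. The summed TPM, a share of the library scaled for transcript length, of 28 oocyte markers was 46720 to 53725 in the oocyte libraries and 42.4 to 244 in the cultured ones, Nanog was at 954 and 814 TPM in ESC and at or below 0.0161 TPM in oocytes, and Fgf5 was at 55.3 and 18.9 TPM in EpiC against 0.1 and 0.0526 in ESC. Granulosa cell markers summed to 224 TPM in GV replicate 2 against 36.4 in GV replicate 1 and 53.0 to 57.4 in MII. Fibroblast markers summed to 154 and 69.6 TPM in EpiC against 13.2 and 13.4 in ESC, most of it Tagln at 134 and 60 TPM. Gm42418, a gene model that collects ribosomal RNA reads, took 11.6% and 17.0% of all TPM in replicate 2 of ESC and EpiC, which lowers the TPM of every other gene there. In replicate 1 of these groups it took 0.0256% and 0.0213%. Replicate 2 was also the higher one in oocytes, at 1.33% against 0.0204% in GV and 3.09% against 0.16% in MII. The part of these markers and of Gm42418 in the results was not tested.

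The sequences shown are short stretches of 3′ UTR that hold a polyadenylation element within the last 100 bases, and 3 microRNAs with their seeds. The stretches were picked because they hold the element. Other named genes that rose at maturation, such as Cpeb4, Accsl and Lin28a, hold none. The windows are 30 bases of GRCm38 with GENCODE M21 transcripts, 5′ to 3′ on the strand of the gene, with the element TTTTAT or TTTTAAT in capitals. The first 6 belong to genes that rose at maturation and not on naive exit, the next 3 to genes that rose at maturation and fell on naive exit, and the last 2 to genes that carry an element and fell at maturation.
Foxn2, chr17:88490504-88490533, plus strand: ttgcagaataaatgtcgTTTTATaacactt
Gtf2a1, chr12:91555262-91555291, minus strand: ataataaagataTTTTATttattgccagca
Khsrp, chr17:57021079-57021108, minus strand: gcagtttttactTTTTATcgctcgttttta
Tet3, chr6:83362381-83362410, minus strand: tgttttaataaaTTTTATatttattttttg
Pan3, chr5:147548459-147548488, plus strand: tatagcagtattTTTTAATaaagaattgca
Dcp1a, chr14:30527009-30527038, plus strand: gcaaatatatttTTTTAATaaaatttcaaa
Tcl1, chr12:105216797-105216826, minus strand: gaatgtgtgggaTTTTATgtggttctattt
Tbx3, chr5:119684695-119684724, plus strand: tgaaatttcaataaatTTTTATtgaaatga
Aurkc, chr7:7003036-7003065, plus strand: gcttgttttctcTTTTATgaagtgatgtta
Ybx2, chr11:69941532-69941561, plus strand: cctctgaagccaTTTTATgaactgtcatgt
Fbxo5, chr10:5799226-5799255, minus strand: aatgtgagttttTTTTATatctgtgaatac

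The mature microRNAs are from RefSeq on GRCm38.p6, with the seed (bases 2 to 8) in capitals. They are shown because the 3′ UTRs were searched for 7-base sites that pair with these seeds. miR-294-3p and miR-302b-3p share 1 seed and so 1 site, AGCACTT. The site for let-7 is CTACCTC.
mmu-miR-294-3p, chr7:3220691-3220712, plus strand: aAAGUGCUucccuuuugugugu
mmu-miR-302b-3p, chr3:127545275-127545297, plus strand: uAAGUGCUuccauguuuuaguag
mmu-let-7a-5p, chr13:48538239-48538260, minus strand: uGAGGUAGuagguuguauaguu

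Far more genes changed at maturation than on naive exit. In edgeR's quasi-likelihood test at an adjusted p under 0.05, 39.6% of the 25045 genes tested were called at maturation, 4357 higher (17.4%) and 5572 lower (22.2%) in MII. On naive exit 5.46% were called, 659 higher (2.63%) and 708 lower (2.83%) in EpiC. The difference of the changes was called for 29.7%, 4116 above 0 (16.4%) and 3315 below (13.2%). Without ESC replicate 1 the difference was called for 4932 genes, 2452 of them above 0, and the naive-exit calls fell to 114 higher and 236 lower. These naive-exit calls were 299 and 413 without ESC replicate 2, 356 and 291 without EpiC replicate 1, and 462 and 370 without EpiC replicate 2. Without GV replicate 2, 2729 differences lay above 0, and without MII replicate 1 the genes lower in MII were 3533.

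The systems differed in the size of changes. Among the 10532 genes detected in both, the median absolute log2 fold change was 2.01 at maturation and 0.38 on naive exit. The median SE was 0.45 and 0.43, but the groups share 1 spread per gene in the fit. These SEs therefore do not compare the error of the systems. Between the libraries of a group the median absolute log2 difference was 0.44 in GV, 0.38 in MII, 0.3 in ESC and 0.4 in EpiC. A change of at least 1 on the log2 scale was met by 75.7% of genes at maturation and 20.3% on naive exit. Across these genes, which are not independent replicates, Pearson's r between the changes was 0.018 and Spearman's rho 0.007, and r lay between −0.012 and 0.046 under all other settings run. In bulk libraries fewer cells of a type and less RNA per cell cannot be told apart, and the fold changes are relative to the bulk of mRNAs in each library and not amounts per cell.

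**Figure D1:**
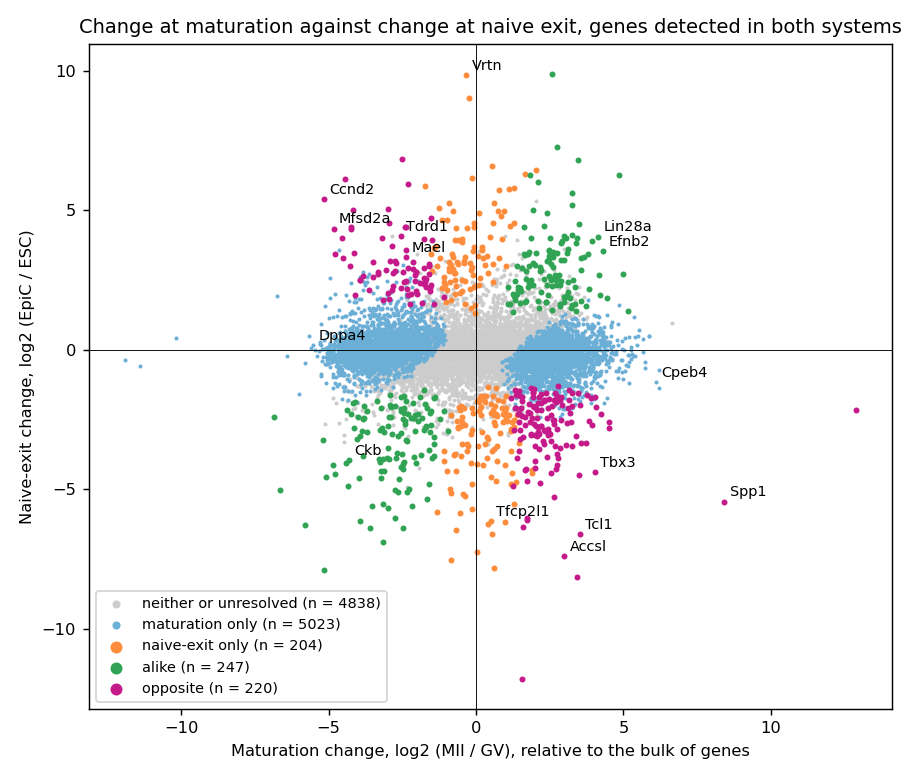
Log2 fold change at maturation (MII against GV, x axis) and on naive exit (EpiC against ESC, y axis) for the 10532 genes detected in both systems, 1 point per gene, coloured by class, with selected genes named. Points of genes with a group at 0 counts sit at fitted values that are no bound. The cloud is wide along the maturation axis and narrow along the naive-exit axis, with median absolute changes of 2.01 and 0.38.

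Maturation calls depended on how libraries are scaled. With TMM scaling 43.9% of them were higher in MII, with relative log expression 48.2%, with library totals alone 14.1%, and with limma on log2(TPM + 1) 22.8%. The share of differences above 0 was 55.4%, 52.6%, 86.2% and 74.7% in the same order. The median maturation change of the genes detected in both systems was −0.04 with TMM, 0.18 with relative log expression, −1.47 with library totals and −0.88 with log2(TPM + 1), whereas the median naive-exit change stayed between −0.08 and −0.03 in these fits. The TMM factors were 1.075 and 1.15 in GV and 0.422 and 0.405 in MII, so a maturation log2 fold change lies above the log2 ratio of the TPM beside it. A small rise at maturation is therefore a rise against this shifting centre, and the genes described one by one below kept their class in all 5 other scalings, except Vrtn, Zp3, Lin28b, Klf4, Lef1, Rps15a, Drosha, Dicer1, Dgcr8, Ago2, Ago3, Tet2, Dnmt3a and Zscan4d. Genes not detected in both systems have no class.

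**Figure D2:**
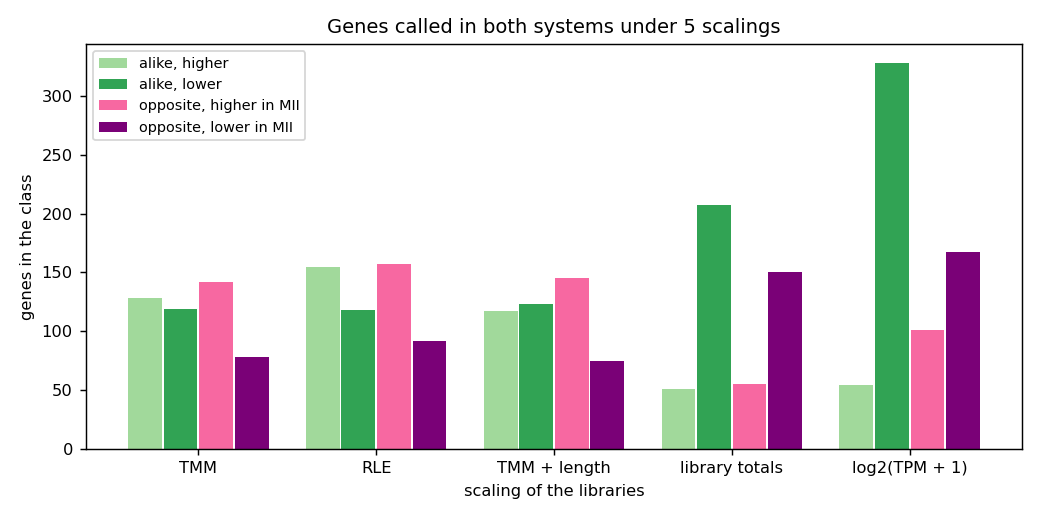
Number of genes called in both systems (bars, y axis) in each of 4 classes under TMM scaling, relative log expression (RLE), TMM with a length offset, library totals and limma on log2(TPM + 1). With library totals the genes alike and higher fell to 51 and those alike and lower rose to 207, against 128 and 119 with TMM.

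Genes that moved in both systems were few, and with TMM scaling about as many moved alike as oppositely. Of the 10532 genes, 247 changed in the same direction, 128 higher and 119 lower, and 220 changed in opposite directions. Of the opposite genes 78 were lower at maturation and higher on naive exit, and 142 the reverse. Maturation alone changed 2491 genes upward and 2532 downward, and naive exit alone changed 94 upward and 110 downward, each with a called difference. Among the 10532, 6.99% were called on naive exit, 3.08% higher and 3.91% lower, and the difference was called for 53.8%, 26.6% above and 27.2% below 0. The other genes were 1735 called in one system with no called difference and 3103 called in neither.

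Genes called on naive exit were called at maturation about as often as other genes. Of the 10532, 68% were called at maturation, 33.5% higher and 34.5% lower. Among the 324 genes higher on naive exit 63.6% were called at maturation, 39.5% higher and 24.1% lower. Among the 412 lower on naive exit 63.3% were called, 34.5% higher and 28.9% lower. The shares were not tested against each other.

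Counts of genes moving in both systems were smaller with fewer libraries. Genes alike and higher numbered 28 without ESC replicate 1, 69 without ESC replicate 2, 70 without EpiC replicate 1, 76 without MII replicate 2 and 85 without GV replicate 2. Those alike and lower numbered 49, 75, 60 and 71 without ESC replicates 1 and 2 and EpiC replicates 1 and 2. Genes lower at maturation and higher on naive exit numbered 43 without GV replicate 2, 47 without MII replicate 1, 16 without ESC replicate 1, 35 without ESC replicate 2 and 47 without EpiC replicate 1. The reverse class numbered 50, 87, 80 and 73 without ESC replicates 1 and 2 and EpiC replicates 1 and 2. Genes of naive exit alone numbered 26 higher and 47 lower without ESC replicate 1, 60 higher without either ESC replicate 2 or EpiC replicate 1, and 57 and 64 lower without EpiC replicates 1 and 2. Of the 247 alike genes 117 kept their class in all 5 other scalings, and of the 220 opposite genes 104 did.

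The strongest opposite genes that fell in oocytes and rose on naive exit included the cell cycle regulators Ccnd2 and Cdkn1c. Ccnd2 (cyclin D2, chromosome 6, 127125162 to 127152193 on GRCm38), which drives cells from G1 into S phase, was at 3.25 and 5.38 TPM in GV and 0.203 and 0.159 in MII, and at 0.25 and 0.449 in ESC and 8.05 and 15.6 in EpiC. Both groups of each system were separate, but the gene was ranked by these same changes, so this is no added evidence. That limit holds wherever groups of a ranked gene are said not to overlap. Its log2 fold change was −5.17 ± 0.60 (SE) at maturation (adjusted p = 0.000545) and 5.41 ± 0.60 on naive exit (adjusted p = 0.00241), a difference of 10.58 ± 0.85. Cdkn1c (chromosome 7, 143458339 to 143461050) encodes the cyclin-dependent kinase inhibitor p57, which holds cells out of S phase. It moved the same way as the cyclin, from 9 and 10.5 TPM in GV to 0.206 and 0.19 in MII and from 1.35 and 0.913 in ESC to 19.1 and 20.6 in EpiC, with a difference of 8.65 ± 0.75 (adjusted p = 0.000864).

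The membrane proteins Mfsd2a and Gfra1 moved the same way. Mfsd2a (chromosome 4, 122946850 to 122961188), a transporter of lysophospholipids that carry docosahexaenoic acid, was at 132 and 184 TPM in GV, 2.05 and 2.87 in MII, with 0.176 and 0.12 in ESC and 4.02 and 2.03 in EpiC, and its difference was 9.18 ± 0.66 (adjusted p = 0.000789). Gfra1, the GDNF receptor, fell from 29.9 and 24.3 to 1.52 and 1.61 TPM at maturation and rose from 0.1 and 0.0565 to 2.83 and 1.84 on naive exit, with log2 changes of −2.97 and 5.06. In both genes the level reached in EpiC was far below that of GV oocytes. Egr1, an immediate early gene of ERK signalling, changed by −2.32 ± 0.68 at maturation (adjusted p = 0.0232) and by 5.94 ± 0.82 on naive exit. Its maturation call was lost without GV replicate 2, at −1.27, and without MII replicate 1, at −1.91.

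The most opposite genes in the other direction, higher in MII and lower in EpiC, included several present in both oocytes and ESC. Tcl1 (chromosome 12, 105216750 to 105222793), a coactivator of AKT kinase and a naive marker, was at 1107 and 1416 TPM in GV and 6405 and 6534 in MII, and at 78.1 and 20.9 in ESC and 0.836 and 0.25 in EpiC. Its groups did not overlap in either system, its changes were 3.52 ± 0.67 (adjusted p = 0.00274) and −6.60 ± 0.79 (adjusted p = 0.00304), and the difference was −10.11 ± 1.03 (adjusted p = 0.000984). Its relative Tcl1b2 went from 394 and 458 TPM in GV to 2170.1 and 2003 in MII, and from 2.4 and 4.26 in ESC to 0 and 0.0154 in EpiC, where the libraries held 1 count together. The Tcl1 family has near copies, so the split of reads among its members is uncertain.

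Tbx3 (chromosome 5, 119670669 to 119684724), a T-box factor of the naive network, was rare in oocytes at 0.995 and 0.913 TPM in GV and 5.15 and 6.84 in MII, and went from 69.3 and 84.8 in ESC to 1.99 and 5.72 in EpiC. Its changes were 4.02 ± 0.59 and −4.38 ± 0.60, both called (adjusted p = 0.000867 and 0.00451). Accsl, named for its likeness to a plant ethylene enzyme, was at 1007 and 963 TPM in GV, 3429.9 and 3613 in MII, with 20.8 and 19 in ESC and 0.18 and 0.25 in EpiC. Aurkc, the Aurora kinase of meiotic divisions, showed the pattern at smaller size, with 349.7 and 419 TPM in GV, 928 and 927 in MII, with 11.8 and 8.31 in ESC and 1.61 and 1.23 in EpiC, and a difference of −5.25 ± 0.50 (adjusted p = 0.000938). Spp1, the secreted protein osteopontin, differed by −13.86 ± 1.39: it was at 0 and 0.211 TPM in GV, 14.3 and 25.8 in MII, with 923 and 585 in ESC and 25.2 and 10.2 in EpiC.

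**Figure D3:**
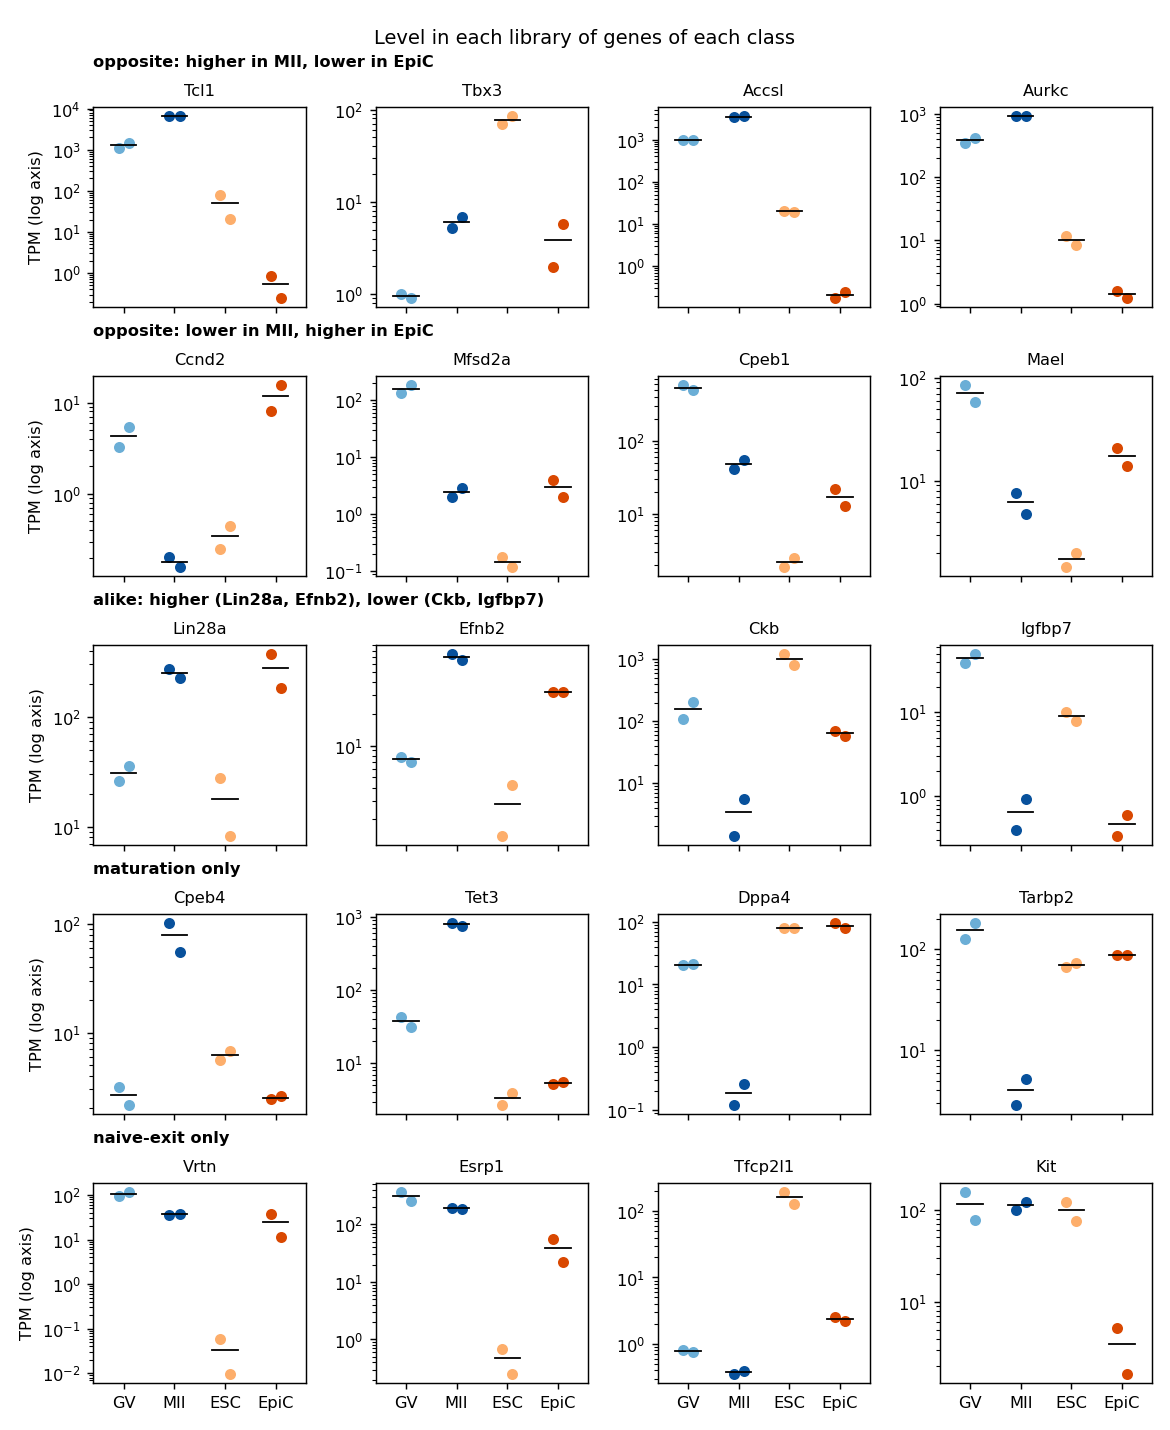
TPM on a log axis in each of the 8 libraries (points) for 20 genes, with the mean of each group as a line, in rows of 4: opposite in either direction, alike, maturation only and naive exit only. Ccnd2 falls from GV to MII and rises from ESC to EpiC, Tcl1 does the reverse, and Lin28a rises in both.

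Genes that rose in both systems were led by Lin28a (chromosome 4, 134003330 to 134018841), whose protein binds the let-7 precursor and blocks its processing. It was at 26.2 and 35.5 TPM in GV and 272 and 225 in MII, and at 27.7 and 8.28 in ESC and 373 and 183 in EpiC. The changes were 4.15 ± 0.63 (adjusted p = 0.00098) and 4.06 ± 0.63 (adjusted p = 0.00759), and they differed by −0.09 ± 0.78. Efnb2 (ephrin B2, chromosome 8, 8617434 to 8661242), a membrane ligand for Eph receptors, rose from 7.84 and 7.01 to 74 and 64.5 TPM and from 1.39 and 4.21 to 32.6 and 32.5, by 4.32 and 3.54 on the log2 scale. Sema3e, a secreted guidance cue, rose by 3.26 ± 0.42 and by 5.64 ± 0.47, an unequal pair with a difference of 2.39 ± 0.56 (adjusted p = 0.0118) that was lost without ESC replicate 1, at 2.26. Lin28b, the relative of Lin28a, was higher by 1.88 ± 0.50 and 2.51 ± 0.51. Its maturation call was lost with library totals (0.47) and without GV replicate 2 (1.36) or MII replicate 2 (1.79), and its naive-exit call without ESC replicate 1 (2.22), ESC replicate 2 (2.88) or EpiC replicate 1 (2.15).

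Genes that fell in both systems included Igfbp7 (chromosome 5, 77349240 to 77408041), a secreted protein that binds insulin-like growth factors. It was at 38.4 and 49.3 TPM in GV, 0.393 and 0.925 in MII, with 10.2 and 7.81 in ESC and 0.339 and 0.6 in EpiC, and the changes of −4.85 ± 0.66 and −4.13 ± 0.64 differed by 0.72 ± 0.82. Sh3rf2, an SH3 and RING finger protein, fell by 3.84 ± 0.45 and by 3.80 ± 0.46, the closest match among the alike genes named, with a difference of 0.04 ± 0.62. Mylpf, a fast muscle myosin light chain, was abundant in ESC at 924 and 396 TPM and scarce in GV at 6.6 and 9.22, and fell to 17.2 and 7.78 in EpiC and 0.174 and 0.793 in MII. Fam25c went from 11.1 and 11.3 TPM in GV to 0 and 0.0653 in MII, where the libraries held 2 counts together, and from 141 and 70.3 in ESC to 3.33 and 2.88 in EpiC. Ckb, the brain creatine kinase, fell by 4.31 ± 0.69 at maturation, and its naive-exit change of −3.96 ± 0.68 was lost without ESC replicate 1 (−3.71) or EpiC replicate 1 (−3.93). Zp3, a zona pellucida glycoprotein of the egg coat, was at 3001 and 3770.1 TPM in GV, 54.6 and 173 in MII, with 9.73 and 6.35 in ESC and 1.29 and 0.795 in EpiC. Its naive-exit change of −2.94 ± 0.59 (adjusted p = 0.0227) was lost with log2(TPM + 1), at −2.13, and without ESC replicate 1 (−2.66), EpiC replicate 1 (−3.12) or EpiC replicate 2 (−2.76).

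Genes that rose at maturation alone were led by Foxn2, a forkhead transcription factor (chromosome 17, 88440711 to 88490533), and Gtf2a1, a subunit of the general transcription factor TFIIA (chromosome 12, 91555262 to 91590487). Foxn2 was at 6.52 and 8.08 TPM in GV and 291 and 164 in MII, and at 29.3 and 21.6 in ESC and 12.4 and 7.74 in EpiC. Its maturation change was 6.22 ± 0.50 (adjusted p = 0.000518), its naive-exit change −1.37 ± 0.40 (adjusted p = 0.0929) and the difference −7.59 ± 0.63 (adjusted p = 0.000789). Gtf2a1 went from 6.23 and 9.87 TPM to 336 and 192 at maturation, and was at 19.2 and 25.4 in ESC and 12 and 13.7 in EpiC. The windows printed for both hold TTTTAT, with 7 and 12 bases between it and the annotated 3′ end. Cpeb4, a CPEB protein that takes over tail extension late in maturation, rose from 3.15 and 2.15 TPM to 103 and 56.1, with changes of 6.10 ± 0.49 at maturation and −1.16 ± 0.40 on naive exit. Its 3′ UTR, only 45 bases in the annotated transcript used here, held no such element. Nhsl1 and Klhl28, which also rose at maturation alone, held none either.

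Genes that fell at maturation alone included Dppa4 (chromosome 16, 48283733 to 48294237), which with Dppa2 holds developmental promoters ready in pluripotent cells. Dppa4 was at 20.6 and 21.1 TPM in GV and 0.12 and 0.255 in MII, and stayed between 78.5 and 95.3 TPM in the 4 cultured libraries. Its changes were −5.52 ± 0.48 (adjusted p = 0.000518) and 0.16 ± 0.38 (adjusted p = 0.993). Dppa2 fell by 3.25 ± 0.33 at maturation, with a naive-exit change of −0.29 ± 0.31. Tmsb15l, a thymosin, was at 8.08 and 9.21 TPM in GV and at 0 counts in both MII libraries, at least 18.2-fold lower against a floor of 3 counts per library, and stood at 10.6 and 9.52 in ESC and 8.61 and 12.5 in EpiC. Gbx2, a homeobox gene downstream of LIF, fell from 143 and 162 to 1.84 and 3.22 TPM at maturation, and was at 7.65 and 3.29 in ESC and 4.79 and 3.79 in EpiC.

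Genes of naive exit alone included Cldn7 and Esrp1, known from epithelia, and the naive factor Tfcp2l1. Cldn7 (chromosome 11, 69964779 to 69967885), a claudin of tight junctions, was at 1.97 and 1.47 TPM in ESC and 92.1 and 36.8 in EpiC, and between 1.22 and 2.09 TPM in the 4 oocyte libraries. It rose by 5.76 ± 0.59 (adjusted p = 0.00196), with a difference of 4.66 ± 0.72. Esrp1, an epithelial splicing regulator, rose from 0.683 and 0.253 to 56.8 and 22.3 TPM, with a naive-exit change of 6.58 ± 0.63 and a maturation change of 0.55 ± 0.49, and was most abundant in the oocytes, at 363 and 253 in GV. Vrtn, known for its part in the number of vertebrae, was at 0.0584 and 0.00973 TPM in ESC and 38.3 and 11.2 in EpiC, and at 94.5 and 116 in GV and 35.7 and 38.4 in MII. Enpp2, the enzyme autotaxin, rose by 9.02 ± 1.20, although its EpiC libraries lay apart at 31.5 and 3.3 TPM. Tfcp2l1 (chromosome 1, 118627945 to 118685168), a naive transcription factor, fell from 193 and 128 to 2.56 and 2.2 TPM, by 6.15 ± 0.43 (adjusted p = 0.000525), and was below 1 TPM in every oocyte library. Kit, the receptor of stem cell factor, fell from 122 and 74.5 to 5.26 and 1.66 TPM, by 4.79 ± 0.62, and was at 154 and 77.2 in GV and 99.7 and 122 in MII.

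Lists of genes with known roles differed in how their members moved, and were read beside all 25045 genes tested, whose median change was −0.53 at maturation and 0.03 on naive exit. Of all genes tested 17.4% were higher and 22.2% lower at maturation, and of the genes detected in both systems 33.5% and 34.5%, so calls in both directions at maturation are also what the genes at large show. Counts of 0 from edgeR were set beside the members with an unadjusted p under 0.05 and the calls of DESeq2 and of limma on log2(TPM + 1); these were also 0 unless given. Naive pluripotency genes fell on naive exit: 17 of 24 were lower and 0 higher (1 at an unadjusted p under 0.05), with a median of −3.75 (background 2.83% lower). At maturation 8 of the 24 were higher and 6 lower, with a median of 0.51 (5 and 9 with library totals, with a median of −0.46). Of the 18 detected in both systems 7 were higher at maturation and lower on naive exit, beside 1.35% of all genes so detected. The direction of this list on naive exit is part of how its members are known, so it is no independent evidence.

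Klf4, a naive factor used to reprogram cells, was at 3.2 and 4.17 TPM in GV, 5.25 and 5.85 in MII, with 150.5 and 126 in ESC and 1.62 and 2.42 in EpiC. Its naive-exit change of −6.01 ± 0.47 was called under every setting run on it, and its maturation change of 1.74 ± 0.39 (adjusted p = 0.0068) was lost with library totals (0.30), log2(TPM + 1) (0.49), log2(TPM + 0.1) (0.59) and without GV replicate 1 (1.43). Of 12 general pluripotency genes 7 were higher and 0 lower at maturation, with a median of 1.83. With library totals these were 4 and 1, with a median of 0.4. On naive exit 2 of the 12 were higher and 1 lower. Pou5f1, the core factor OCT4, passed in neither, at 0.79 ± 0.40 and −0.34 ± 0.40. Sox2, its partner, was scarce in oocytes at 0.863 and 0.434 TPM in GV and 2.82 and 2.28 in MII, and at 208 and 160.4 in ESC and 63.2 and 42.7 in EpiC. Its rise at maturation was 3.16 ± 0.41, and its naive-exit change of −1.79 ± 0.38 (adjusted p = 0.027) was lost without any 1 of the 4 cultured libraries, at −1.64 to −1.92.

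Formative and primed epiblast genes rose on naive exit in 13 of 23 cases, with 0 lower and a median of 3.02. As with the naive list, this direction is part of how the members are known and is no independent evidence. At maturation 8 rose and 3 fell with a median of 0, a balance that turned to 2 and 8 with library totals and to 1 and 3 with limma on log2(TPM + 1). With TMM the difference was above 0 for 10 and below for 1, beside 16.4% and 13.2% of all genes tested. Lef1, a transcription factor of the Wnt pathway, was the gene below: it was at 12.4 and 27.3 TPM in GV and 112 and 188 in MII, and at 3.48 and 2.79 in ESC and 19.2 and 10 in EpiC. The Lef1 difference of changes, −2.26 ± 0.74 (adjusted p = 0.0468), is near the threshold. It was not called with library totals (−0.76) or a length offset (−1.86), nor without GV replicate 1 (−1.68), MII replicate 1 (−2.61), MII replicate 2 (−1.79), ESC replicate 1 (−2.13), ESC replicate 2 (−2.37) or EpiC replicate 2 (−1.84). Targets of ERK signalling rose on naive exit in 6 of 16 cases with a median of 1.67, and 2 rose and 3 fell at maturation (1 and 8 with library totals). Removal of the MEK inhibitor lets ERK signalling act, so their rise on naive exit is no independent evidence either. Dusp6, an ERK phosphatase, rose from 2.68 and 1.51 to 108 and 173 TPM on naive exit and was below 1 TPM in every oocyte library. Etv4, an ETS factor of the same pathway, changed by −2.44 ± 0.46 at maturation and by 2.42 ± 0.42 on naive exit. The naive-exit call of Etv4 was lost without ESC replicate 1 (2.54), ESC replicate 2 (2.31) or EpiC replicate 2 (2.11).

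**Figure D4:**
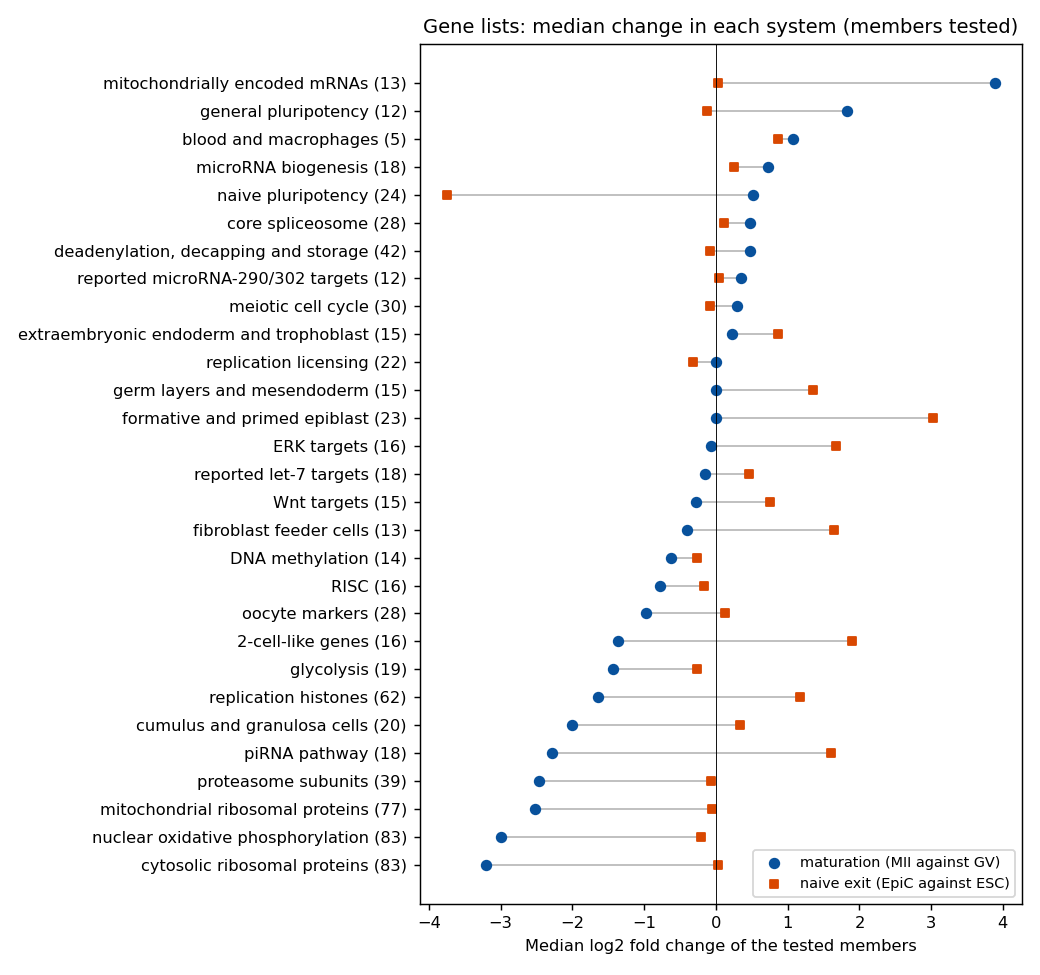
Median log2 fold change of each gene list at maturation and on naive exit (circles for maturation, squares for naive exit, x axis), with the number of members tested beside each name. Ribosomal protein lists lie far to the left at maturation and near 0 on naive exit, and the naive and formative lists lie far from 0 on naive exit.

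The protein synthesis and respiration genes of the nucleus moved at maturation and hardly on naive exit. Of 83 cytosolic ribosomal protein genes 73 were lower and 2 higher in MII, with a median of −3.2, and on naive exit 1 was lower and 0 higher by edgeR with a median of 0.03. Their summed TPM was 26009 and 35897 in GV, 4303 and 5108 in MII, against 165110 and 137170 in ESC with 174000 and 132760 in EpiC. Rpl21, a protein of the large subunit, went from 309 and 358 TPM in GV to 1.5 and 9.37 in MII and from 912 and 690.3 in ESC to 954 and 703 in EpiC, and its difference was 4.87 ± 0.95. Rps15a, of the small subunit, was higher in MII with 1004 and 1144 TPM in GV and 1824 and 1906 in MII, one of the 2 higher members.

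Mitochondrial genes split by the genome that holds them. Of 83 nuclear genes of oxidative phosphorylation 65 were lower and 4 higher in MII, with a median of −2.99, and of 77 mitochondrial ribosomal proteins 52 were lower and 5 higher, with a median of −2.52. On naive exit 0 members of either list passed in edgeR. Of the first list 5 were lower at an unadjusted p under 0.05, 3 by DESeq2 and 1 by limma. All 13 mRNAs encoded by the mitochondrial genome were higher in MII, with a median of 3.89, and 0 were called on naive exit by edgeR, with a median of 0.03. The 13 were also called higher with library totals, with a median of 2.46. mt-Co2, a subunit of cytochrome oxidase, was at 123 and 294 TPM in GV, 3005 and 6487 in MII, with 5492 and 7886 in ESC and 5749 and 6547 in EpiC, with no overlap between GV and MII. Sdhd, the nuclear-encoded membrane anchor of succinate dehydrogenase, went from 207 and 212 TPM in GV to 1.56 and 3.98 in MII, and was at 149 and 102 in ESC and 159.6 and 77.1 in EpiC. Its difference was 4.95 ± 0.72 and that of mt-Co2 −5.75 ± 0.86. Mitochondrial reads made up 0.746% and 0.819% of counts in GV and 3.27% and 3.68% in MII.

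Of the piRNA pathway genes detected in both systems, 11 in number, 3 were opposite and 1 was alike and lower. These 3 were lower at maturation and higher on naive exit, as were 78 (0.741%) of all 10532 genes so detected. Alike and lower were 119 of the 10532. Of the 8 oocyte markers so detected 0 were opposite and 3 were alike and lower. Of 18 piRNA pathway genes 9 were lower and 1 higher in MII, with a median of −2.29, and 7 were higher and 1 lower in EpiC, with a median of 1.61. The difference was above 0 for 10 and below 0 for 0, beside 16.4% and 13.2% of all genes tested. Mael (chromosome 1, 166201201 to 166238747), which is needed for silencing transposons in germ cells, was at 84.7 and 58 TPM in GV, 7.54 and 4.8 in MII, with 1.46 and 1.99 in ESC and 20.8 and 14 in EpiC. It fell by 2.37 ± 0.40 (adjusted p = 0.00163) and rose by 3.32 ± 0.42 (adjusted p = 0.00359). Tdrd1, a tudor protein that binds PIWI proteins, changed by −2.55 ± 0.63 and 4.07 ± 0.68, and its maturation call was lost without GV replicate 1 (−2.03), MII replicate 1 (−2.36) or MII replicate 2 (−2.78). Of 28 oocyte markers 13 were lower and 7 higher at maturation, and 6 lower and 2 higher on naive exit, most of them at low levels in the cultured cells. Figla, a transcription factor of oocyte genes, was at 55.8 and 63.3 TPM in GV, 1.85 and 2.94 in MII, and below 1.2 in the cultured libraries.

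Regulators of mRNA tails and storage were called at maturation in shares near those of all genes detected in both systems. Of 42 genes for deadenylation, decapping and storage 17 were higher and 13 lower in MII, with a median of 0.47 (12 and 20 with library totals, with a median of −0.96), and 2 were higher and 2 lower in EpiC, beside 3.08% and 3.91% of the genes detected in both. Cpeb1 (chromosome 7, 81347026 to 81455465), the CPEB protein of early maturation, was at 583 and 496 TPM in GV, 41.1 and 55.5 in MII, with 1.9 and 2.49 in ESC and 22.1 and 12.7 in EpiC. It fell by 2.30 ± 0.37 at maturation and rose by 2.94 ± 0.39 on naive exit (adjusted p = 0.00133 and 0.00394), opposite to Cpeb4 at maturation. Pan3, of the PAN2-PAN3 deadenylase, rose from 22.2 and 29 to 211 and 258 TPM, and Dcp1a, an activator of decapping, from 152 and 108 to 1303 and 1347. Their naive-exit changes were −0.09 ± 0.36 and 0.16 ± 0.34, and both windows printed hold TTTTAAT. Ybx2, a Y-box protein that stores mRNA in germ cells, carries TTTTAT and went from 614 and 486 TPM in GV to 22.3 and 28.7 in MII, with a change of −3.15 ± 0.39. Its naive-exit change of 1.77 ± 0.37 (adjusted p = 0.0258) was lost without ESC replicate 1 (1.63), ESC replicate 2 (1.93), EpiC replicate 1 (1.70) or EpiC replicate 2 (1.84).

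The microRNA machinery held genes that rose and genes that fell at maturation, as did the genes detected in both systems at large. Of 18 genes of microRNA biogenesis 8 were higher and 3 lower in MII, with a median of 0.72 (4 and 7 with library totals, with a median of −0.7), and 2 were higher and 0 lower in EpiC, Lin28a and Lin28b. Tarbp2, the partner of Dicer that loads Argonaute, was at 127 and 180.4 TPM in GV, 2.88 and 5.23 in MII, with 66.6 and 72.6 in ESC and 87.4 and 87.2 in EpiC, with changes of −4.19 ± 0.48 and 0.37 ± 0.42. Khsrp, a KH-domain protein that binds some precursors and AU-rich elements, moved the other way, from 4.16 and 18.7 TPM in GV to 156 and 240.5 in MII, with 75.1 and 71.1 in ESC and 74.9 and 68.9 in EpiC. Its difference was −5.25 ± 0.92 (adjusted p = 0.00381), and the tail of its 3′ UTR carries TTTTAT. Ddx5, a helicase of the Drosha complex, and Dis3l2, the nuclease that degrades uridylated let-7 precursors, rose by 3.39 ± 0.40 and 2.84 ± 0.40 at maturation, with naive-exit changes of −0.03 ± 0.36 and −0.52 ± 0.37.

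Drosha and Xpo5, which cut and export precursors, fell at maturation by 2.10 ± 0.50 and 2.11 ± 0.45, with naive-exit changes of 0.04 ± 0.48 and 0.28 ± 0.43. The difference of Drosha, 2.15 ± 0.69 (adjusted p = 0.0431), was near the threshold. It was not called with relative log expression (1.93), nor without GV replicate 1 (1.78), MII replicate 1 (2.12), MII replicate 2 (2.17), ESC replicate 1 (2.58), ESC replicate 2 (1.81) or EpiC replicate 1 (1.37). That of Xpo5, 2.38 ± 0.62, was lost without MII replicate 2 (2.18), ESC replicate 2 (2.11) or EpiC replicate 1 (1.85). Dicer1 changed by 1.81 ± 0.48 at maturation (adjusted p = 0.0144) and by 0.47 ± 0.47 on naive exit, and Dgcr8 by −0.79 ± 0.36 and 0.35 ± 0.35, with no called difference for either.

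Of 16 genes of the RNA-induced silencing complex 5 were higher and 7 lower in MII, with a median of −0.78 (1 and 10 with library totals), and 0 were called in EpiC by edgeR. On naive exit 1 was higher and 3 were lower at an unadjusted p under 0.05, and 1 and 1 by DESeq2 and by limma. Ago2, the slicing Argonaute, was at 5.55 and 3.58 TPM in GV, 0.674 and 0.578 in MII, with 53.6 and 47.7 in ESC and 34.4 and 26 in EpiC. It fell by 1.70 ± 0.33 at maturation (adjusted p = 0.00309). The naive-exit change was −0.73 ± 0.32 (adjusted p = 0.275) and the difference 0.97 ± 0.45 (adjusted p = 0.144), so a difference between the systems was not resolved for it. Fxr2, an FMRP relative, had a resolved difference of 3.52 ± 0.56, with 142 and 168 TPM in GV and 3.95 and 7.52 in MII against 94.8 and 109 in ESC and 88.9 and 93.5 in EpiC. Ago3 differed by −3.80 ± 0.69 (adjusted p = 0.00421), a value that was −1.29 (adjusted p = 0.105) once transcript length entered as an offset and −0.16 with log2(TPM + 1), so it was called only where counts were taken without length.

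Among regulators of the cell cycle and of DNA methylation single genes changed strongly, and as for the genes at large both directions were called at maturation. Of 30 genes of the meiotic cell cycle 13 were higher and 12 lower in MII (10 and 13 with library totals), and 0 were higher (2 at an unadjusted p under 0.05, 1 by DESeq2) and 1 lower in EpiC, Aurkc. Cdk1, the kinase of mitotic and meiotic entry, was at 328 and 308 TPM in GV, 1.96 and 7.31 in MII, with 413 and 311 in ESC and 374 and 201 in EpiC, with changes of −4.94 ± 0.64 and −0.33 ± 0.55. Fbxo5, the inhibitor EMI1 of the anaphase-promoting complex, fell by 4.81 ± 0.61 at maturation although its 3′ UTR holds TTTTAT with 78 bases between it and the end. Sgol2a, which protects centromeric cohesion, rose by 4.15 ± 0.47. Of 14 DNA methylation genes 3 were higher and 5 lower in MII (2 and 10 with library totals), and 1 was higher and 2 lower in EpiC. Tet3, the dioxygenase that oxidises methylcytosine in the zygote, rose from 43.6 and 31.6 TPM in GV to 823 and 761 in MII. It was at 2.71 and 3.91 in ESC and 5.16 and 5.5 in EpiC. Tet2 was opposite, and went from 61.8 and 82.9 TPM in ESC to 3.89 and 6.44 in EpiC. In oocytes it was below 1 TPM, at 0.582 and 0.489 in GV and 0.767 and 0.906 in MII. Its maturation change was 2.78 ± 0.40 (adjusted p = 0.000812) and its difference −6.64 ± 0.58. Dnmt3a, the de novo methyltransferase, rose on naive exit from 12.9 and 11.3 to 134 and 53.9 TPM, by 2.50 ± 0.41, a call lost without ESC replicate 1 (2.56) or ESC replicate 2 (2.43). In oocytes Dnmt3a was at 125 and 136 TPM in GV and 14.2 and 16.1 in MII. Its maturation change from counts was −0.46 ± 0.39 and not called (adjusted p = 0.382), so TPM and counts differ for this gene.

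Genes with a polyadenylation element in the 3′ UTR tail lay higher at maturation, and not on naive exit. A 3′ UTR of at least 20 bases was found for 9859 of the 10532 genes, and 1986 of them (20.1%) had TTTTAT or TTTTAAT on the sense strand in the last 100 bases. Both motifs were counted as 1 element, with no minimum spacing. The median maturation change was 1.74 for genes with the element and −0.49 for those without, and 57.4% against 28.2% were called higher. The median naive-exit change of the same genes was −0.03 with the element and −0.05 without, and the median difference of changes −1.63 and 0.43. The middle range of the maturation change, from the first to the last quartile, was −0.08 to 2.74 with the element and −2.41 to 1.48 without, so the sets overlap broadly. The values are descriptions over genes, with no test.

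The contrast held within terciles of 3′ UTR length, parted at 521 and 1484 bases. In the short tercile the median maturation change was 1.41 with and −1.78 without the element, in the middle tercile 1.62 and −0.40, and in the long tercile 2.03 and 0.66. The naive-exit medians lay between −0.07 and −0.02 in all 6 sets. By class, 35.9% of genes that rose at maturation alone had the element, 8.61% of those that fell at maturation alone, 32.3% of genes alike and higher, and 9.26% of genes alike and lower. Opposite genes had it in 27.9% where maturation was higher and in 12.2% where maturation was lower. Naive exit alone gave 21.3% higher and 9.52% lower, from 89 and 105 genes with a 3′ UTR. A match is a description of letters near an annotated end and not a site shown to act.

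**Figure D5:**
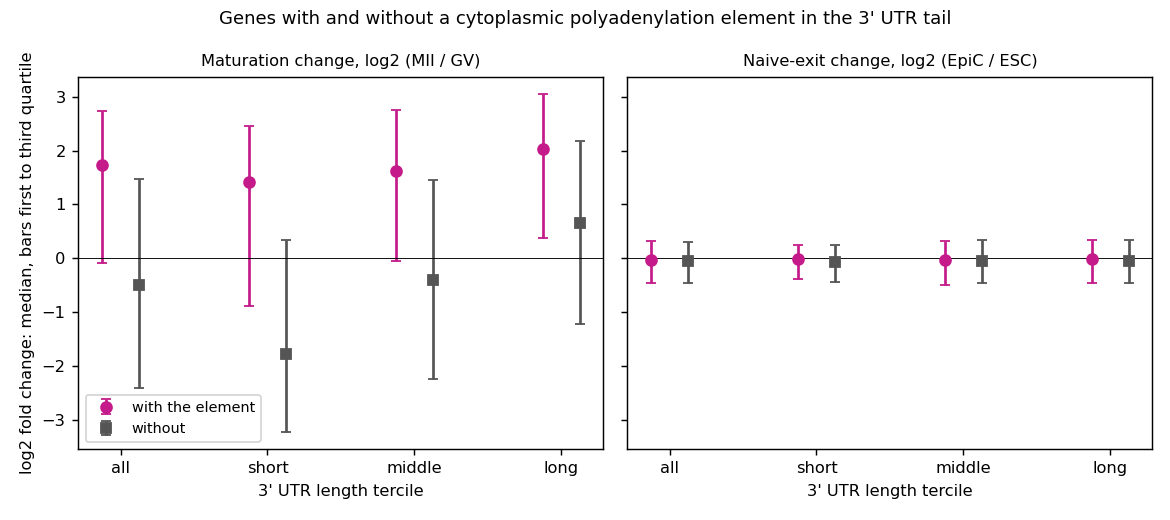
Maturation change and naive-exit change (log2 fold change) of genes with and without TTTTAT or TTTTAAT in the last 100 bases of the 3′ UTR, for all genes and by tercile of 3′ UTR length, as median (point) and quartiles (bar). Genes with the element lie higher at maturation in each tercile, while the naive-exit medians are all within 0.07 of 0.

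The AU-rich element also went with higher maturation changes at matched UTR length, by less than the polyadenylation element, while the gaps of the microRNA sites were small and of either sign. The element TATTTAT lay in 27.5% of the 9859 3′ UTRs, in 38.2% of genes that rose at maturation alone and in 14.7% of those that fell. Its median maturation change was 1.05 with and −0.49 without over all 3′ UTRs, −0.12 and −1.41 in the short tercile, 0.84 and −0.22 in the middle and 1.31 and 0.59 in the long tercile. The seed site of miR-294-3p and miR-302b-3p, AGCACTT, lay in 15% of 3′ UTRs. The median maturation change was 0.62 with this site and −0.12 without over all 3′ UTRs, −1.35 and −1.34 in the short tercile, −0.01 and 0.08 in the middle and 0.98 and 0.96 in the long tercile, where the naive-exit change was −0.08 and −0.03. The let-7 site CTACCTC lay in 8.95%, and the maturation medians were −1.25 with and −1.34 without in the short tercile, −0.12 and 0.09 in the middle and 0.78 and 1.01 in the long tercile, where the naive-exit medians were 0.01 and −0.05. Of 12 reported targets of the families of these 2 microRNAs 4 were higher and 1 lower at maturation and 1 higher and 1 lower on naive exit, and of 18 reported let-7 targets 7 and 7, and 3 and 0 (1 lower at an unadjusted p under 0.05). With library totals the maturation counts of these lists became 4 and 5, and 2 and 9.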

How the data were processed

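The 8 deposited tables list, per transcript, estimated counts that the authors made with kallisto 0.43 on mm10 per the submitters' processing notes, together with effective length and TPM, the kallisto share of each transcript after division by its length. The aligner settings are not given in the sources used here. Per gene, estimated counts were added up and rounded and TPM were added up, and symbols were read from the transcript names in the tables. Positions and 3′ UTRs are from GENCODE M21 on GRCm38, for the coding transcript with the highest mean TPM, and microRNAs and promoters from RefSeq.

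Genes were filtered with filterByExpr and scaled by TMM in edgeR 4.0.16 (R 4.3.3). The 8 libraries entered 1 quasi-likelihood fit with a mean for each group (4 residual degrees of freedom, robust), and MII minus GV, EpiC minus ESC and their difference were tested with glmQLFTest. All adjusted p-values of genes are Benjamini-Hochberg values from this edgeR test over the genes of that contrast, called under 0.05, unless limma is named. Errors are SE, approximated by dividing the size of the log2 fold change by the root of the F statistic. A gene counted as detected in a system with at least 1 CPM on the TMM scale in both libraries of one of its groups. Alike and opposite genes were called in both changes. Genes of one system were called there, not in the other, and in the difference. Unresolved genes were called in one change with no called difference. Groups at 0 counts were bounded by a floor of 3 counts per library. Such intervals and p-values leave out the error of assigning reads to transcripts, so near copies such as the Tcl1, Zscan4 and histone families are uncertain.

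Genes were ranked for naming where protein-coding, detected in both systems, with at least 10 TPM in a group and 3 counts in each library of a group of each system: the 8 opposite genes per direction with the largest difference, the 6 alike genes per direction with the largest smaller change, and the 6 per direction of one system with the largest change. Without these limits on level and detection were added up to 3 members per direction of the difference from each of 29 lists, and Ago2, Dicer1, Zp3, Pou5f1, Nanog, Fgf5 and all members of the microRNA biogenesis and silencing complex lists. Not every gene the rule admits is described. The genes, lists and contrast were chosen with earlier results of these data known. Alternatives were relative log expression, library totals, DESeq2 1.42.0, no filter, a length offset, limma 3.58.1 on log2(TPM + 1) and log2(TPM + 0.1), a replicate term, coding genes alone, detection at 5 CPM, calls of at least 1 on the log2 scale, and each library left out. The fit was tested on simulated data, with a known difference of changes given to some genes. Of 100 genes with a difference of 3 on the log2 scale 37 were called, and of 100 with a difference of 6, 93. All other genes of the 25045 were simulated without any change between groups. With so few changed genes the Benjamini-Hochberg cut was stricter than in the data, where the difference was called for 29.7%. The simulated shares are therefore not the shares found or missed in the data. A difference that was not called is still no sign of equal changes.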

Additional observations from a re-analysis of the deposited data

How the results depend on the processing

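The direction of the maturation calls rested on scaling, and the number of naive-exit calls on the test. With library totals the difference was above 0 for 8029 genes and below for 1284, maturation higher for 1719 and lower for 10494, alike 51 higher and 207 lower, opposite 150 lower and 55 higher at maturation, and maturation only 802 and 4401. DESeq2 called 1527 higher and 1426 lower on naive exit, 258 and 229 alike, 171 and 316 opposite, and 146 higher on naive exit only. Without a count filter 1303 and 1277 were called on naive exit, with 219 alike lower and 159 and 232 opposite. limma on log2(TPM + 1) called 7600 differences above 0, 2408 genes higher at maturation, 1287 and 1538 on naive exit, 54 and 328 alike, 167 opposite and lower at maturation, and 1103 higher at maturation only. On log2(TPM + 0.1) it called 7937 and 2174 differences, 2275 and 9107 at maturation, 1151 and 1279 on naive exit, 64 and 258 alike, 154 and 85 opposite, and 1088 and 3955 at maturation only. Detection at 5 CPM left 67 and 66 alike, 37 opposite and lower at maturation, and 38 and 72 on naive exit only, from fewer genes. The cause of the other shifts was not tested.

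With 1 library left out, called differences numbered 4932 to 6677 (above 0 2452 to 3805, below 2480 to 2967), maturation 3232 to 4550 higher and 3533 to 5752 lower, naive exit 114 to 545 higher and 236 to 643 lower, alike 28 to 100 higher and 49 to 110 lower, opposite 16 to 68 lower and 50 to 132 higher at maturation, maturation only 1960 to 2374 and 1752 to 2577, and naive exit only 26 to 97 and 47 to 118. A lone library was assumed to vary like the other groups. In limma on log2(TPM + 1) the difference reversed for Gm15698 (0.54), Dennd2c (−0.87) and Bmp15 (1.14).

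The replicate numbers are shared by all groups, but the labels do not tie them to a batch or animal. Deviations from the group means of same-numbered libraries correlated at 0.516 between GV and MII, 0.758 between ESC and EpiC and 0.112 to 0.225 otherwise, over 2 numbers only. With the replicate number as a block, opposite genes numbered 123 lower and 247 higher at maturation, and no other count moved by over 1.5 times. Naive-exit calls went from 659 higher and 708 lower to 984 and 1033 with this block.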

Other observations

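Genes detected in one system were not classed: 2907 in oocytes only and 3029 in cultured cells only, with 8577 detected in neither. Among the first, Pabpc1l, the poly(A)-binding protein of oocytes, was at 329 and 409 TPM in GV and 4.47 and 14.1 in MII, a change of −3.97 ± 0.78. Zp2, of the egg coat, was at 3464 and 2262 TPM in GV and 56.8 and 116 in MII, a change of −3.86 ± 0.62. Among the second, Krt8, a keratin of simple epithelia, rose from 11.1 and 6.82 TPM in ESC to 137 and 275 in EpiC, by 4.63 ± 0.75. Tagln, a smooth muscle actin-binding protein, rose from 0.939 and 1.81 to 134 and 60 TPM in EpiC, by 6.08 ± 0.89. It is a member of the fibroblast list, of whose 13 tested genes 2 rose and 0 fell on naive exit by edgeR (1 fell by limma on log2(TPM + 1)). Of 16 genes of the 2-cell-like state 3 fell at maturation (8 with library totals) and 0 passed on naive exit by edgeR, where 14 were higher at an unadjusted p under 0.05, 8 by DESeq2 and 5 by limma on log2(TPM + 1). Zscan4d, of a family of near copies with uncertain read assignment, was at 2.92 and 1.32 TPM in GV, 0 and 0.0465 in MII, with 14.1 and 14.7 in ESC and 39.8 and 59.8 in EpiC.

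Of the other lists described here, the proteasome was mostly lower at maturation. Core spliceosome, replication licensing and glycolysis genes were called in both directions, beside 33.5% higher and 34.5% lower among the genes detected in both systems. Of 39 proteasome subunits 23 were lower and 2 higher in MII, with a median of −2.47, and 1 was higher on naive exit. Psmb7, of the catalytic core, went from 378 and 359 TPM in GV to 1.2 and 5.96 in MII, and Psmc2, of the regulatory cap, from 151 and 154 to 0.406 and 3.63, against 291 and 151 and 171 and 109 in ESC. Of 28 core spliceosome genes 10 were higher and 8 lower (3 and 11 with library totals), and of 22 replication licensing genes 9 and 7 (3 and 12), with 0 called on naive exit by edgeR in each list (2 licensing genes lower at an unadjusted p under 0.05). Orc6, of the origin recognition complex, rose by 3.34 ± 0.33, and Gins4, of the GINS helicase complex, fell by 3.35 ± 0.39. Of the 19 glycolysis genes 4 were higher and 8 lower in MII (1 and 12 with library totals), and 1 was lower on naive exit. Hk2, a hexokinase, rose by 3.86 ± 0.68 and Pkm, the last enzyme of the pathway, fell by 3.48 ± 0.55. Nras and Hras, near relatives among RAS proteins and both on the list of reported let-7 targets, went opposite ways at maturation, at 3.74 ± 0.34 and −4.07 ± 0.55, with naive-exit changes of 0.17 ± 0.31 and 0.46 ± 0.48.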
